A study of Mus musculus with 24 samples.

Results

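The 32 genes described here carry glucose through glycolysis or are tied to it by the hypoxia response. They were taken from the 54532 rows of the gene table by exact match of the gene symbol. Their symbols matched 33 rows because Aldoa was listed under a pair of gene identifiers, and the lesser Aldoa row, at most 2.01 FPKM in any library, was left out of the tests. FPKM is the number of sequenced fragments of a gene scaled by its length and by the size of the library. The libraries were made from bone marrow-derived macrophages (BMDMs), grown in L929-conditioned medium, and dendritic cells derived from the same source (BMDCs), cultured in the presence of IL-4 and GM-CSF. The marrow came from C57BL/6N mice in which every animal carried the floxed allele Tmem173fl/fl and was given tamoxifen. The mice labelled WT had no Cre, and those labelled CRE carried the inducible Lzym-Creert2 allele, which the study's methods write as Lyz2-Creert2 and which is driven by a promoter active in myeloid cells. Tmem173 encodes STING, the adaptor through which cytosolic DNA induces type I interferon. Each culture was either a control (CT) or was given the mouse STING agonist DMXAA, at 40 µM by the labels, whereas the methods give the same figure in µg/mL, so the concentration is uncertain. This gave 8 groups of 3 libraries. The study gives durations of exposure for other experiments on such cells and ages for the mice given tamoxifen, but ties neither to these libraries. No label says whether the libraries of a group came from separate mice or cultures, so the p-values measure only the spread between these libraries.

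Glycolysis begins with entry of glucose through SLC2A transporters and its phosphorylation by hexokinases, passes through the committed step of phosphofructokinase, and ends in pyruvate, which lactate dehydrogenase turns into lactate for export by SLC16A carriers. The PFKFB enzymes set the amount of the sugar bisphosphate that activates phosphofructokinase, and the pyruvate dehydrogenase kinases (PDKs) hold pyruvate back from the mitochondria. HIF-1, whose alpha subunit is encoded by Hif1a, binds a short ACGTG or GCGTG core in many of these genes under low oxygen, and macrophages and dendritic cells are known to raise glycolytic flux on inflammatory activation.

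The total count was 15657347 to 18912887 per library. The interferon-induced genes Isg15, Ifit1 and Cxcl10 rose with DMXAA in both labels of both cell types. Under DMXAA all 3 were lower in CRE than in WT BMDMs, with log2 differences of -5.64 ± 0.41 for Cxcl10 (SE, edgeR adjusted p = 0.00111), -2.26 ± 0.38 for Ifit1 (adjusted p = 0.00955) and -1.58 ± 0.43 for Isg15 (adjusted p = 0.0462), whereas in BMDCs 0 of 3 passed between labels. The response itself differed between labels in BMDMs for Cxcl10 (-3.38 ± 0.66, adjusted p = 0.0465) and not past the threshold for Ifit1 and Isg15. Tmem173 itself stayed present in the libraries labelled CRE, at 8.76 to 10.4 FPKM in control BMDMs against 9.91 to 14.7 in WT, and at 19.7 to 36.8 in control BMDCs against 28.8 to 51.6 in WT. Under DMXAA it was 9.12 to 10.1 in CRE against 22.8 to 31.8 in WT BMDMs, groups that did not overlap, and 24.3 to 35.1 against 34.6 to 55.3 in BMDCs. Gene-level FPKM does not separate the floxed exons from the rest. All 4 BMDM libraries numbered 3 held little macrophage RNA. The summed FPKM of 8 macrophage markers was 19.6 to 33.1 in them against 5913 to 13090 in the other 8 BMDM libraries, that of 6 pan-leukocyte markers 0.118 to 0.832 against 2081 to 2718, and that of 9 fibroblast markers 1204 to 2001 against 4.24 to 67.6. They go against their label, so the BMDM results use numbers 1 and 2, and number 3 is described apart. Among the libraries kept, the fibroblast markers summed to 55.3 and 67.6 in the BMDM WT libraries numbered 2 against 7.25 and 5.30 in those numbered 1. The BMDC CRE libraries numbered 2 had macrophage marker sums of 1334 and 1557 against 4483 to 6303 in the other 10 BMDC libraries, and neutrophil marker sums of 553 and 299 against 18.8 to 42.5. Markers within a list disagreed. In the CRE control numbered 2 Lyz2 was 927 FPKM against 4031 to 5963 in the other BMDC controls, but Cd68 was 248 against 123 to 199. There S100a8 was 202 against 11.9 to 16.5, but Ly6g was 0.337 against 1.09 to 2.29. All 8 macrophage markers were at or above 1 FPKM in both cell types, and 7 of 8 dendritic cell markers were so in BMDCs against 3 or 4 of 8 in BMDMs. Among pairs of libraries of 1 cell type and treatment, 6 were closer than the rest, with a median squared difference of 2.02 to 3.61 times counting noise against 5.67 to 70.1 for the other 36. They included BMDM CRE numbers 1 and 2, as controls and under DMXAA, and 4 pairs that joined a WT with a CRE library of BMDCs. They differed by more than counting noise and were kept as separate libraries. The pairs of WT BMDMs numbered 1 and 2 lay at 36.0 in controls and 26.1 under DMXAA. Groups of a fit shared 1 estimate of the spread, to which the close CRE pairs contribute. The BMDM p-values may therefore rest on CRE libraries that are not independent, which was not tested.

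DNA around the transcript starts of 31 of the 32 genes was read from RefSeq on the GRCm38.p6 assembly, in 44 windows of 300 bases, from 250 before to 50 after a start. The windows below are those of a hand-picked set of called members, each with a core, and not of all the largest differences. Called members without a core, such as Tpi1 and Gpi1, are not shown. The capitals mark the 2 HIF core sequences, ACGTG and GCGTG, on either strand (read as CACGT and CACGC where they lie on the opposite strand). Slc2a6, Hk3 and Pfkfb3 rose with DMXAA in both labels of both cell types, and Pfkfb4, Egln3 and Bnip3 are known HIF targets that fell in WT BMDMs. HIF targets did not all fall, and Hk2, not shown here, rose in both labels of BMDCs. Among BMDMs numbered 1 and 2, Egln3 reached 1 FPKM only in the WT controls.
Slc2a6 (chr2:27027949-27028248, minus strand): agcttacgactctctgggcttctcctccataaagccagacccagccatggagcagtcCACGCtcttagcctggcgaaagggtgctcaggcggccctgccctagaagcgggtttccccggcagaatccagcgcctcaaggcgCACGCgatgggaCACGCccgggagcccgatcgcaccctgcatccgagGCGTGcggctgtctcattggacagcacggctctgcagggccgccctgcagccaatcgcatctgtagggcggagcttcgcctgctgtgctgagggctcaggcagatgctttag
Hk3 (chr13:55021336-55021635, minus strand): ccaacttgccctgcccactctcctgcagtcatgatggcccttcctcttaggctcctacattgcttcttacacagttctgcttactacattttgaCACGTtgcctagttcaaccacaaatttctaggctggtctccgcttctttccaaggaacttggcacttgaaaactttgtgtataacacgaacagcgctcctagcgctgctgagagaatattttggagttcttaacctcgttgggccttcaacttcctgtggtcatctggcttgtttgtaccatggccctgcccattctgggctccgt
Pfkfb3, inner start (chr2:11502041-11502340, minus strand): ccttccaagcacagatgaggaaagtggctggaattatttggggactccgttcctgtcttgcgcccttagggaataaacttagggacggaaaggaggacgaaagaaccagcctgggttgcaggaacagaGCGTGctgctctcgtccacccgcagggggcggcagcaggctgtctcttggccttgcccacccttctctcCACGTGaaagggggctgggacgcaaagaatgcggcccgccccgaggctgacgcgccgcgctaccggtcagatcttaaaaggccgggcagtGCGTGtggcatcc
Pfkfb3, outer start (chr2:11553880-11554179, minus strand): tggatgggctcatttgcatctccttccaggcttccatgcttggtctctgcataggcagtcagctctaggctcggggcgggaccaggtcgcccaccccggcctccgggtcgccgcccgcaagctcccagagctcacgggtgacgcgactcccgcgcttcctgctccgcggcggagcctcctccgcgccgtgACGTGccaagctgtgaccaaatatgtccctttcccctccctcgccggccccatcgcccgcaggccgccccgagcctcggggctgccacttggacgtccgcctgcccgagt
Egln3 (chr12:54203825-54204124, minus strand): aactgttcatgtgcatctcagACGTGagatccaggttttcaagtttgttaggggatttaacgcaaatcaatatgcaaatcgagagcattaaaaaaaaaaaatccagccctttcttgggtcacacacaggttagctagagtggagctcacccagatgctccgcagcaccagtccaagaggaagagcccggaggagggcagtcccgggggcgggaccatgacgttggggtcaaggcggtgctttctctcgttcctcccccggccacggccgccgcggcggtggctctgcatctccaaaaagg
Pfkfb4 (chr9:108991652-108991951, plus strand): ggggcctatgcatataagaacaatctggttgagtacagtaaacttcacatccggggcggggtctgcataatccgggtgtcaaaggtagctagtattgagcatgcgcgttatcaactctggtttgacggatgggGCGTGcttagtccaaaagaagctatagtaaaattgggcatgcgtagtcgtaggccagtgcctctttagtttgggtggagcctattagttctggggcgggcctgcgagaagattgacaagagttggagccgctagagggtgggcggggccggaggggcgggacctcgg
Bnip3 (chr7:138909457-138909756, minus strand): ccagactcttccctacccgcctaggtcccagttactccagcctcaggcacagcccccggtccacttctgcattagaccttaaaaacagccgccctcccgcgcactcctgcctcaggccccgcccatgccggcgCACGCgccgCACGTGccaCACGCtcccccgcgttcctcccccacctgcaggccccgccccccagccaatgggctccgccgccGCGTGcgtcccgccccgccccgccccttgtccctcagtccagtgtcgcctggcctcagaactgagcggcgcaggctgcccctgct
The Slc2a6 window held 4 cores, that of Hk3 held 1, the inner Pfkfb3 start held 4 and the outer start 1, Egln3 and Pfkfb4 held 1 each, and Bnip3 held 5, with the palindrome CACGTG counted on both strands. A core was present in 36 of 44 member windows (81.8%) against 14380 of 32851 windows of all genes (43.8%). ACGTG was in 22 member windows against 19.6% of all windows, and GCGTG in 25 (56.8%) against 32.4%. Each core contains a CG, and member windows were also richer in CG, with a median of 20 CG dinucleotides against 7. Among windows with 12 to 25 CG dinucleotides the share with a core was 23 of 26 (88.5%) for members and 4914 of 7463 (65.8%) for all genes. Members that rose and members that fell both held cores. In WT BMDMs a core stood in 7 of 7 members that rose and in 10 of the 12 with a window that fell, and in WT BMDCs in 5 of 5 and 5 of 6. These matches describe letters only and are not measured binding sites.

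DMXAA raised some glycolytic genes and lowered others in each cell type. In WT BMDMs isozymes of the same family moved opposite ways, with Slc2a6, Pfkp, Pfkfb3 and Pdk3 higher and Slc2a3, Pfkl, Pfkfb4 and Pdk1 lower. In WT BMDMs 20 of 32 members passed the test (edgeR quasi-likelihood, Benjamini-Hochberg adjusted over all genes tested, adjusted p under 0.05), 7 higher and 13 lower, against 39.2% of all genes. In CRE BMDMs 8 of 32 passed, 6 higher and 2 lower, against 10.0% of all genes. In WT BMDCs 11 of the 30 members tested passed, 5 higher and 6 lower, against 32.2% of all genes, and in CRE BMDCs 10 of 30 passed, 4 higher and 6 lower, against 25.4%. The BMDC shares lie near the background. Eno2 and Pdk4 were too low in BMDCs to be tested. The median change of the members was -0.50 on the log2 scale in WT BMDMs against -0.08 over all genes, and -0.30 in WT BMDCs against 0.01. In bulk RNA, fewer cells of a type and less RNA per cell cannot be told apart in any of these differences.

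**Figure D1:**
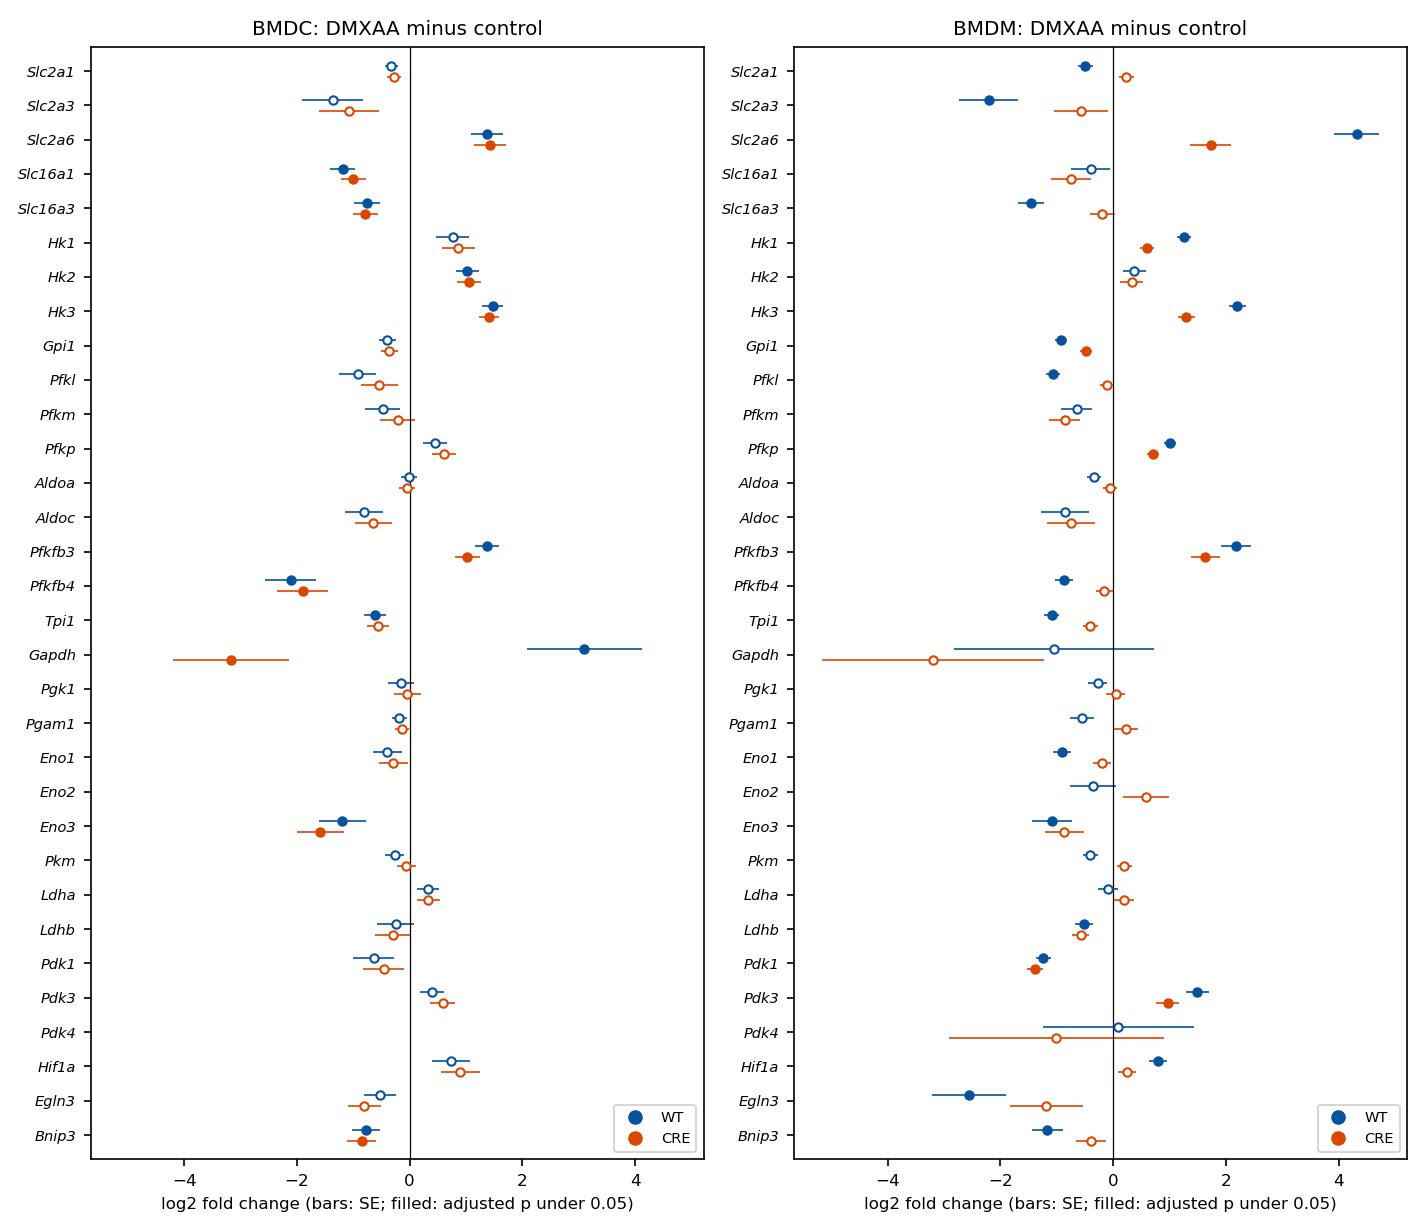
Log2 fold change of each gene with DMXAA (horizontal axis, bars are standard errors) in BMDCs (left) and in BMDMs numbered 1 and 2 (right), for WT (blue) and CRE (orange), with filled points at an adjusted p under 0.05 in the fit without a block. Slc2a6 at 4.32 and Egln3 at -2.56 mark the ends of the called range in WT BMDMs, and Gapdh has the widest bars in both panels. Among these BMDMs Egln3 reached 1 FPKM only in the WT controls, so the size of its fall is uncertain.

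Control and DMXAA libraries of BMDCs with the same label and number deviated together, so each was also fitted with its own number as a block. With that block 22 of 30 members passed in WT BMDCs (48.7% of all genes) and 17 of 30 in CRE BMDCs (42.7%), and 10 of the 11 and 9 of the 10 calls above were among them, Gapdh being the exception in each. The further calls in WT were rises of Hif1a, Hk1, Pfkp and Ldha and falls of Slc2a1, Slc2a3, Gpi1, Pfkl, Aldoc, Eno1, Pdk1 and Egln3. In CRE they were rises of Hif1a, Hk1, Pfkp and Pdk3 and falls of Slc2a3, Gpi1, Tpi1 and Egln3. Values below are from the fit without the block unless the block is named. The deposited FPKM rest on effective library sizes that fell relative to the total count with DMXAA, and scaling by total counts instead shifted the median of all genes by -0.59 in WT BMDMs, -0.35 in WT BMDCs, -0.24 in CRE BMDMs, -0.34 in CRE BMDCs and 0.24 between labels in BMDMs under DMXAA, with 0.32 for the difference of BMDM responses, 0.21 between cell types under DMXAA and 0.20 for the difference of their responses. With that scaling 26 members passed in WT BMDMs, 6 higher and 20 lower (59.1% of all genes, of which 1401 were higher and 5432 lower, against 2134 and 2397), and 22 in WT BMDCs, 5 higher and 17 lower (42.0% of all genes, 1352 higher and 3737 lower against 2056 and 1848). The block was not combined with that scaling, so the further calls with the block were not checked under it. No called member of the fits without the block changed direction under that scaling, but the rise of Hif1a in WT BMDMs no longer passed (0.29, adjusted p = 0.15). Neither did Hk1 in the CRE response of BMDMs, Pfkp, Pfkfb3 and Pdk1 between labels in BMDMs under DMXAA, or Slc16a1 between cell types under DMXAA.

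Between the genotype labels, 10 of 32 members differed in BMDMs under DMXAA, 4 higher and 6 lower in CRE, against 19.3% of all genes. In control BMDMs 0 of 32 passed in edgeR against 0.0432% of all genes, although 8 had an unadjusted p under 0.05 and DESeq2 called 2. The response to DMXAA differed between WT and CRE BMDMs for 2 of 32 members, Slc2a6 and Pfkl, against 3.66% of all genes. In BMDCs 0 of 30 members passed under DMXAA, in controls or for the difference of responses, by edgeR or by DESeq2 with an adjusted p, and 0% of all genes passed in edgeR. At an unadjusted p under 0.05, 1, 2 and 1 members of BMDCs remained in these comparisons. The 4 close pairs that joined a WT with a CRE library of BMDCs, at 2.55 to 3.27 times counting noise, were closer than any of the 12 pairs within a BMDC label, at 5.67 to 70.1. They joined the same numbers in both treatments. CRE 1 stood with WT 3 (2.55 in controls, 3.06 under DMXAA) and CRE 3 with WT 2 (3.27 and 2.92). The labels do not say whether such libraries share a source, and the part of these pairs in the count of 0 was not tested. Results given for both labels of BMDCs may therefore not be independent. Between the cell types in WT, 13 of 32 members differed in controls, 6 higher and 7 lower in BMDCs, against 28.5% of all genes, and 12 of 32 under DMXAA, 6 in each direction, against 30.6%. The response differed between cell types for 1 member, Slc2a6, against 2.61% of all genes.

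These counts rested on few libraries. In WT BMDCs the 11 calls became 7 without WT control 1, WT control 2 or WT DMXAA 3, and in CRE BMDCs the 10 became 6 without CRE DMXAA 1. In CRE BMDMs the 8 calls became 1 (Pdk1) without either control and 2 (Pdk1 and Hk3) without either DMXAA library, and the 10 differences between labels under DMXAA became 1 (Pfkfb4) without either CRE DMXAA library. The 2 differences of response in BMDMs became 0 without any of the 4 CRE libraries or without WT DMXAA 1. The 20 calls in WT BMDMs stayed within 1.5 times of that number whichever library was left out, but became 11 when only the compared libraries were fitted and 0 when number 3 was included (0% of all genes). Of the 13 members that differed between control cell types, 8 remained in number without BMDM WT control 1 and 5 with number 3 included (8.51% of all genes). Without both BMDM WT libraries numbered 2, in which fibroblast markers were raised, calls were lost for Eno3 in the WT response of BMDMs, for Pdk4, Hk2, Pfkfb4 and Tpi1 between control cell types, and for Pdk4, Hif1a, Slc16a1 and Eno2 between cell types under DMXAA. Without both BMDC CRE libraries numbered 2, Gapdh and Bnip3 lost their calls in the CRE response of BMDCs (adjusted p = 0.299 and 0.0705 in edgeR).

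Slc2a6 (ENSMUSG00000036067, chr2:27021363-27027998, minus strand, GRCm38), a member of the glucose transporter family that lies inside the cell, showed the largest response. In BMDMs it stood at 4.54 and 10.6 FPKM in WT controls, 171 and 158 in WT with DMXAA, 5.69 and 5.21 in CRE controls, and 18.0 and 18.9 in CRE with DMXAA. Both WT DMXAA libraries lay far above every other BMDM library, and the CRE DMXAA libraries lay above all controls. The rise was 4.32 ± 0.40 (log2, SE) in WT (edgeR adjusted p = 0.000381) and 1.73 ± 0.36 in CRE (adjusted p = 0.0307), and the 2 responses differed by -2.59 ± 0.50 (adjusted p = 0.0458). That difference is near the threshold. It missed the threshold without WT DMXAA 1 or without any of the CRE libraries, at adjusted p of 0.0983 to 0.225. Under DMXAA the level was 8.62-fold lower in CRE than in WT BMDMs (adjusted p = 0.00346).

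In BMDCs Slc2a6 was already high without the agonist, at 90.1, 65.8 and 63.4 FPKM in WT and 61.8, 42.7 and 65.5 in CRE controls. With DMXAA it reached 205, 189 and 185 in WT and 185, 88.7 and 193 in CRE. The groups with and without DMXAA did not overlap in either label, and CRE number 2 was the lowest of each CRE group. The rise was 1.38 ± 0.28 in WT (adjusted p = 0.00326) and 1.43 ± 0.28 in CRE (adjusted p = 0.00344). WT control BMDCs held 9.26-fold more than WT control BMDMs (adjusted p = 1.43e-05), whereas under DMXAA the cell types differed by 0.28 ± 0.33 on the log2 scale (adjusted p = 0.56). The response was smaller in BMDCs by 2.93 ± 0.48 on the log2 scale (adjusted p = 0.00379), and this difference passed the threshold whichever of the 10 WT libraries was left out.

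Slc2a1, the widely used glucose transporter GLUT1, changed less than Slc2a6. It was at 31 and 34.3 FPKM in WT control BMDMs and 23.1 and 27.0 with DMXAA, and at 29.1 and 29.4 in CRE controls and 34.9 and 35.2 with DMXAA. DMXAA libraries lay below the controls in WT and above them in CRE. The fall in WT was -0.49 ± 0.13 (adjusted p = 0.0249), lost without WT DMXAA 1 or WT control 2, the CRE value was 0.24 ± 0.13 (adjusted p = 0.30), and the 2 responses were not shown to differ (0.73 ± 0.19, adjusted p = 0.0901). Under DMXAA Slc2a1 was higher in CRE than in WT BMDMs (0.53 ± 0.13, adjusted p = 0.0348), a call lost without WT DMXAA 1 or either CRE DMXAA library. BMDCs had 39.8, 40.7 and 39.0 in WT controls and 35.7, 31 and 30.4 with DMXAA (-0.33 ± 0.12, adjusted p = 0.0567), and 38.0, 32.5 and 37.2 against 28.4, 30.7 and 31.4 in CRE. With the block the fall passed in WT (adjusted p = 0.0324) and not in CRE (adjusted p = 0.0704), with all 3 pairs lower in each. Slc2a3, the high-affinity transporter GLUT3, was scarce, at 2.53 and 0.988 FPKM in WT control BMDMs against 0.549 and 0.277 with DMXAA. It fell by 2.21 on the log2 scale in WT BMDMs (SE 0.52, adjusted p = 0.0155), a call lost without WT DMXAA 2, while in CRE it was 2.05 and 1.63 against 1.45 and 1.08.

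The lactate carriers did not rise in any response. Slc16a3 encodes MCT4, the carrier that exports lactate. It was 21.3 and 34.0 FPKM in WT control BMDMs and 10.2 and 11.6 with DMXAA, and 15.2 and 14.9 in CRE controls against 13.1 and 13.8. It fell by 1.46 in WT BMDMs (SE 0.23, adjusted p = 0.00348). In BMDCs it went from 24.4, 25.6 and 25.2 to 17.7, 15.0 and 12.7 in WT and from 25.4, 15.1 and 23.8 to 12, 9.89 and 16.1 in CRE. The CRE groups overlapped, through the low number 2 control, and the WT groups did not. The falls were -0.76 ± 0.22 (adjusted p = 0.0240) and -0.78 ± 0.23 (adjusted p = 0.0243), and were lost with 5 and 4 of the 6 single libraries left out. Slc16a1, which encodes MCT1, went from 10.7, 9.97 and 10.5 to 5.69, 3.23 and 4.99 in WT BMDCs and from 9.14, 10.1 and 9.90 to 4.65, 6.61 and 3.63 in CRE. Neither pair of groups overlapped, and the falls of -1.19 ± 0.23 (adjusted p = 0.00231) and -1.0 ± 0.23 (adjusted p = 0.00798) passed with each library left out in turn. In BMDMs Slc16a1 ranged from 5.92 to 13.3 FPKM and was not called in either label.

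**Figure D2:**
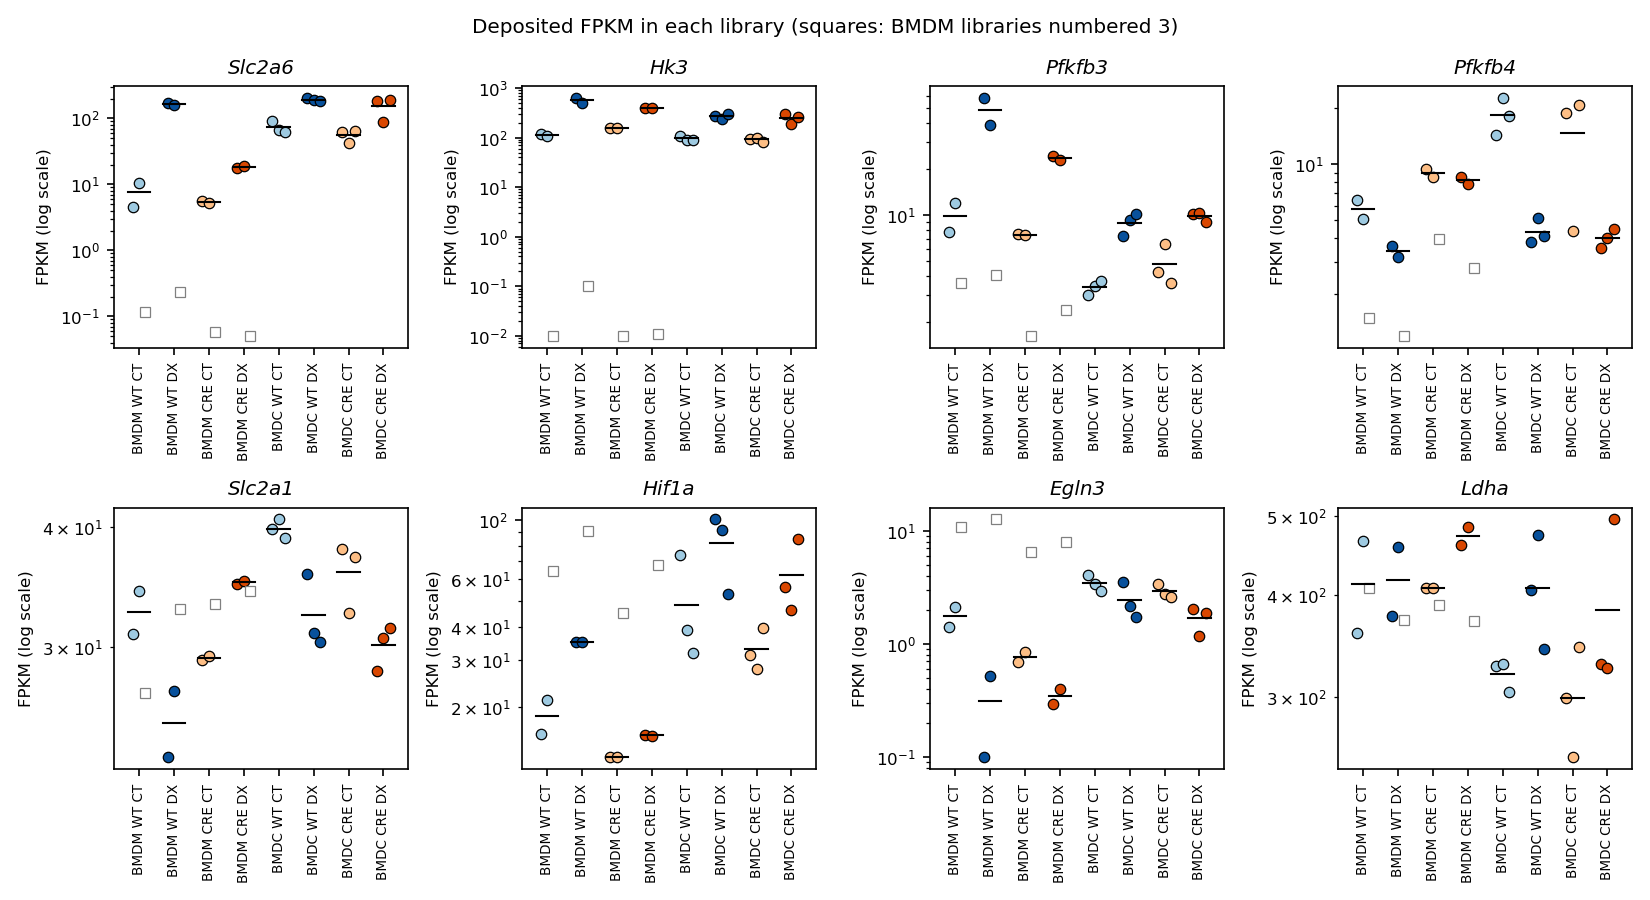
FPKM in each library (vertical log axis) of 8 genes by group (horizontal axis, CT control, DX DMXAA). Circles are the libraries analysed, horizontal lines their means, grey squares the BMDM libraries numbered 3, and zeros are drawn at 0.01. Slc2a6 reached 158 and 171 FPKM in WT BMDMs with DMXAA against 18.0 and 18.9 in CRE, and Ldha stayed within 253 to 496 FPKM in the 20 libraries analysed.

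Hexokinases trap glucose in the cell as glucose 6-phosphate, and Hk3 was the main hexokinase transcript in both cell types. Hk3 (ENSMUSG00000025877, chr13:55005985-55021385, minus strand) went from 120 and 106 FPKM to 635 and 491 in WT BMDMs and from 156 and 159 to 394 and 396 in CRE. It went from 109, 91.0 and 89.1 to 275, 241 and 299 in WT BMDCs and from 94.6, 99.5 and 82.4 to 295, 193 and 257 in CRE. DMXAA libraries lay above all control libraries of their cell type in every case. The rises were 2.21 ± 0.15 in WT BMDMs (adjusted p = 0.00012), 1.30 ± 0.15 in CRE BMDMs (adjusted p = 0.00278), 1.47 ± 0.18 in WT BMDCs (adjusted p = 0.000136) and 1.41 ± 0.18 in CRE BMDCs (adjusted p = 0.00024). The difference between WT and CRE responses in BMDMs was -0.91 ± 0.20 (adjusted p = 0.0653). At a mean of 563 deposited FPKM, Hk3 ranked first among the members in WT BMDMs with DMXAA, above Aldoa at 461. It held 18.1% of the summed FPKM of the members. Rank and share take Gapdh at its deposited 30.9 and 1.42 FPKM in these libraries. How Gapdh fragments that match several places were counted was not given, so both hold only for the deposited values. In the other 7 groups Hk3 ranked below Aldoa.

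The other hexokinases, Hk1 and Hk2, stood at lower levels than Hk3. Hk1, bound to mitochondria in most tissues, was 16.3 and 13.4 FPKM in WT control BMDMs and 40.0 and 36.6 with DMXAA, and 13.9 and 14.2 against 21.7 and 21.7 in CRE. It rose in both labels, by 1.26 ± 0.13 (adjusted p = 0.000524) and 0.60 ± 0.12 (adjusted p = 0.0297), and was 1.71-fold lower in CRE than in WT under DMXAA (adjusted p = 0.00853). In WT BMDCs the level was 13.9 to 15.8 against 23.1 to 28.4 (0.76 ± 0.29, adjusted p = 0.0686), and with the block Hk1 rose in both labels of BMDCs (0.76 ± 0.10 and 0.87 ± 0.10, adjusted p = 0.000256 and 0.000156). Hk2, the inducible hexokinase and a HIF target, was 23.7, 21.7 and 20.8 in WT control BMDCs and 51.0, 35.7 and 50.3 with DMXAA, and 21.0, 17.3 and 19.4 against 54.3, 32.4 and 35.5 in CRE. Its groups did not overlap, and it rose by 1.03 ± 0.21 (adjusted p = 0.00326) and 1.06 ± 0.21 (adjusted p = 0.00357). In BMDMs Hk2 went from 15.9 and 11.3 to 16.4 and 21.5 in WT and from 14.3 and 15.0 to 19.7 and 17.7 in CRE, and neither change passed (0.38 ± 0.20 and 0.33 ± 0.20). The difference of the WT responses between cell types was 0.68 ± 0.31 (adjusted p = 0.36).

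Gpi1 encodes the isomerase that follows hexokinase. It was 72.6 and 73.0 FPKM in WT control BMDMs and 40.5 and 41.9 with DMXAA, and 76.6 and 74.7 against 53.7 and 57.0 in CRE. It fell in both labels, by 0.93 (SE 0.11, adjusted p = 0.000906) and 0.47 (SE 0.11, adjusted p = 0.0375), and was higher in CRE than in WT under DMXAA by 0.47 ± 0.11 (adjusted p = 0.0244). The 2 DMXAA groups did not overlap. WT BMDCs had 77.8 to 88.9 against 57.3 to 76.5, which did not pass (adjusted p = 0.0684). With the block it fell in both labels of BMDCs (adjusted p = 0.0234 in WT and 0.0453 in CRE), in all 3 pairs of each.

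The phosphofructokinase subunits changed places in BMDMs. Pfkp, the platelet-type subunit, went from 8.33 and 8.67 FPKM to 18.4 and 18.7 in WT BMDMs and from 7.66 and 8.01 to 13.3 and 12.8 in CRE. Pfkl, the liver-type subunit, went from 18.1 and 17.5 to 8.58 and 9.76 in WT and from 13 and 12.6 to 11.3 and 12.8 in CRE. Thus Pfkp lay above Pfkl in both WT DMXAA libraries and below it in both WT controls. In CRE it also lay below Pfkl in both controls. With DMXAA it was above Pfkl in CRE number 1 and level with it in number 2 (12.77 against 12.75). Pfkp rose by 1.02 ± 0.11 in WT (adjusted p = 0.000647) and 0.71 ± 0.11 in CRE (adjusted p = 0.00949). Pfkl fell by 1.07 in WT (SE 0.13, adjusted p = 0.00113) and differed by -0.11 ± 0.13 in CRE (adjusted p = 0.62), and the responses differed by 0.96 ± 0.18 (adjusted p = 0.0422). The Pfkl difference missed the threshold without WT control 1, WT DMXAA 1 or any CRE library, at adjusted p of 0.0523 to 0.246. In BMDCs Pfkp was 48.7 to 58.3 in WT controls and 67.7 to 83.8 with DMXAA (0.45 ± 0.21, adjusted p = 0.13), and Pfkl was 11.5 to 17.3 against 6.06 to 8.56 (adjusted p = 0.0520). With the block both passed in WT BMDCs (0.45 ± 0.10, adjusted p = 0.00324, and -0.92 ± 0.17, adjusted p = 0.00134), and in CRE Pfkp did (0.61 ± 0.10, adjusted p = 0.000769) and Pfkl did not (adjusted p = 0.0565). Pfkp stood 6.13-fold higher in WT control BMDCs than in WT control BMDMs (adjusted p = 4.63e-07) and 4.21-fold higher under DMXAA (adjusted p = 4.5e-06). Pfkm, the muscle-type subunit, stayed between 0.815 and 4.09 FPKM and was called only as lower in control BMDCs than BMDMs (-0.99 ± 0.31, adjusted p = 0.0234). Aldoa, the main aldolase, stayed between 411 and 582 FPKM in these 20 libraries and was called in no comparison of the fits reported. Its raw counts were 29757 and 35728 in WT control BMDMs and 15430 and 19094 with DMXAA. Aldoc, at 1.25 to 4.85 FPKM, was called only as lower with DMXAA in WT BMDCs with the block (-0.81 ± 0.21, adjusted p = 0.00931).

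The bifunctional PFKFB enzymes went in opposite directions. Pfkfb3 (ENSMUSG00000026773, chr2:11471433-11554077, minus strand) encodes the form with high kinase activity. It went from 7.74 and 11.9 FPKM to 58.0 and 38.5 in WT BMDMs and from 7.48 and 7.35 to 24.0 and 22.9 in CRE. In BMDCs it was lower throughout, going from 2.99, 3.44 and 3.72 to 7.27, 9.31 and 10.1 in WT and from 4.22, 6.42 and 3.59 to 10.2, 10.3 and 8.96 in CRE. Every DMXAA group lay above its control group. The rises were 2.18 ± 0.27 and 1.64 ± 0.26 in WT and CRE BMDMs (adjusted p = 0.0012 and 0.0126) and 1.37 ± 0.22 and 1.02 ± 0.22 in WT and CRE BMDCs (adjusted p = 0.000762 and 0.00547). Pfkfb3 was 1.98-fold lower in CRE than in WT BMDMs under DMXAA (adjusted p = 0.0398, lost without WT DMXAA 1 or either CRE DMXAA library) and 5.22-fold lower in WT BMDCs than WT BMDMs under DMXAA (adjusted p = 3.97e-06).

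Pfkfb4 (ENSMUSG00000025648, chr9:108991778-109032228, plus strand) was 14.4, 22.8 and 18.3 FPKM in WT control BMDCs and 3.82, 5.13 and 4.11 with DMXAA. In CRE BMDCs it was 18.9, 4.39 and 20.9 in controls and 3.56, 4.01 and 4.5 with DMXAA. The WT groups did not overlap, and in CRE the number 2 control, which also had a low macrophage marker sum, lay among the DMXAA libraries. The falls were -2.11 ± 0.45 (adjusted p = 0.00413) and -1.90 ± 0.45 (adjusted p = 0.00923). In BMDMs it went from 6.46 and 5.09 to 3.65 and 3.17 in WT (-0.87 ± 0.16, adjusted p = 0.00564) and from 9.41 and 8.55 to 8.57 and 7.83 in CRE (-0.15 ± 0.15, adjusted p = 0.56). CRE BMDMs held 2.49-fold more than WT under DMXAA (adjusted p = 0.00345), the CRE libraries being higher in controls too (0.60 ± 0.15, adjusted p = 0.53), and the difference of responses did not pass (adjusted p = 0.13).

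The enzymes from triose phosphate to lactate, which included most of the abundant members, fell or did not pass in BMDMs. Tpi1, triose phosphate isomerase, went from 176 and 207 FPKM to 94.3 and 99.8 in WT BMDMs (-1.09 ± 0.13, adjusted p = 0.0012) and from 147, 128 and 115 to 104, 86.7 and 69.4 in WT BMDCs (-0.61 ± 0.20, adjusted p = 0.0328, lost with 4 of the 6 single libraries left out). Eno1, the main enolase, went from 249 and 303 to 143 and 173 in WT BMDMs (-0.91 ± 0.16, adjusted p = 0.00485). In CRE BMDMs Tpi1 was 160 and 158 against 116 and 128, and Eno1 228 and 231 against 198 and 210, and neither passed. Eno3, the muscle enolase, was a minor transcript, at 6.85, 4.10 and 7.99 in WT control BMDCs against 3.13, 2.72 and 2.59 with DMXAA, and 7.99, 15.1 and 4.34 against 2.35, 4.22 and 2.73 in CRE. In BMDMs it was 2.39 and 3.43 against 1.63 and 1.35 in WT. The Eno3 calls (-1.19 ± 0.42, -1.58 ± 0.42 and -1.08 ± 0.35, adjusted p = 0.0484, 0.0164 and 0.0468) each failed with 3 or more of the single libraries left out.

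Ldha, whose product makes lactate from pyruvate, was not called in any comparison of the fits reported without the block. Its raw counts were 24284 and 32577 in WT control BMDMs and 14128 and 21947 with DMXAA, at total counts that differed less. Ldha was 359 and 467 FPKM in WT control BMDMs, 377 and 459 with DMXAA, 408 and 408 in CRE controls and 461 and 486 with DMXAA. BMDCs had 328, 329 and 304 against 406, 474 and 344 in WT, and 300, 253 and 346 against 330, 326 and 496 in CRE. The WT BMDC groups did not overlap but the change of 0.32 ± 0.20 did not pass (adjusted p = 0.26). With the block it lay at the threshold, passing in WT (0.31 ± 0.12, adjusted p = 0.0472) and not in CRE (adjusted p = 0.0504), with all 3 pairs higher in FPKM in each. As raw counts the WT pairs went from 20134, 21401 and 19781 to 19247, 23929 and 17182, so this direction depends on the scaling. Ldhb, the subunit that favours the reverse reaction, was 8.02 and 8.54 in WT control BMDMs, 6.20 and 6.30 with DMXAA, 13.8 and 13.5 in CRE controls and 8.89 and 9.75 with DMXAA. It was higher in CRE than in WT under DMXAA by 0.62 ± 0.15 (adjusted p = 0.0337), and by a like amount in controls, where the adjusted p was 0.42 (0.68 ± 0.15). In the fits reported, Pgk1 and Pgam1 were called in no comparison, and Pkm, the pyruvate kinase, in no response. Pkm was 283, 265 and 275 FPKM in WT control BMDCs against 470 and 541 in WT control BMDMs (1.92-fold lower, adjusted p = 0.000637). Eno2, the neuronal enolase, was 7.71-fold lower in WT control BMDCs (adjusted p = 0.000262), at 0.344 to 0.541 FPKM against 1.90 and 4.36.

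Gapdh varied widely between libraries of one group. Its FPKM were 1.88, 4.99 and 4.14 in WT control BMDCs, 68.2, 2.81 and 26.8 with DMXAA, 4.89, 49.0 and 13.2 in CRE controls and 3.28, 1.39 and 2.90 with DMXAA. In BMDMs numbered 1 and 2 they ran from 1.42 to 58.0 with both extremes among the WT libraries. The called changes of 3.10 ± 1.02 in WT BMDCs (adjusted p = 0.0373) and -3.17 ± 1.03 in CRE BMDCs (adjusted p = 0.0425) were each lost with 5 of the 6 single libraries left out. Gapdh has many processed copies in the mouse genome, and how the authors counted fragments that match several places was not given in the sources used here. The same limit applies to other members with near-identical rows in the table, of which Eno1b held 92492 counts over the 24 libraries, Pgam1-ps2 4471, Tpi-rs11 3236, Ldha-ps2 1751 and Pgk1-rs7 1450. Hk1os, an antisense gene at Hk1, held 549.

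Of the kinases that switch off pyruvate dehydrogenase, Pdk1 and Pdk3 went opposite ways in BMDMs. Pdk1, a HIF target, was 9.54 and 7.67 FPKM in WT controls and 4.0 and 3.86 with DMXAA, and 6.09 and 6.21 against 2.41 and 2.37 in CRE. It fell by 1.24 (SE 0.13, adjusted p = 0.000696) and 1.38 (SE 0.13, adjusted p = 0.00141), the largest fall of the 2 called in CRE, and stayed called in CRE whichever library was left out. It was also lower in CRE than in WT under DMXAA (-0.67 ± 0.13, adjusted p = 0.0174). Pdk3 went from 4.49 and 5.98 to 17.7 and 14.2 in WT BMDMs (1.49 ± 0.21, adjusted p = 0.00206) and from 4.48 and 5.12 to 8.83 and 10.2 in CRE (0.97 ± 0.21, adjusted p = 0.0330). In BMDCs neither passed, Pdk1 lying between 1.13 and 4.02 FPKM and Pdk3 between 7.85 and 16.9. With the block Pdk1 fell in WT BMDCs (-0.62 ± 0.18, adjusted p = 0.0158) and Pdk3 rose in CRE BMDCs (0.58 ± 0.17, adjusted p = 0.0224). Pdk4, the fasting-induced kinase, had 0 counts in the 3 WT control BMDC libraries. In WT control BMDMs it stood at 0.126 and 1.92 FPKM, from 9 and 142 counts, so no fold is given. Its calls between cell types passed the filter only through the BMDM WT libraries numbered 2. The high BMDM value was in number 2, where the fibroblast markers were raised, and the part of those cells in it was not tested.

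Hif1a (ENSMUSG00000021109, chr12:73901375-73947530, plus strand) was 16.0 and 21.4 FPKM in WT control BMDMs and 34.9 and 35.1 with DMXAA, and 13.1 and 13 against 15.8 and 15.7 in CRE. The WT DMXAA libraries lay above the other 6. It rose by 0.80 ± 0.16 in WT (adjusted p = 0.00847) but not past the threshold in CRE (0.24 ± 0.16, adjusted p = 0.37), and under DMXAA it was 2.15-fold lower in CRE (adjusted p = 0.00622). The difference of the responses was -0.55 ± 0.22 (adjusted p = 0.23). In BMDCs it was 73.6, 38.8 and 31.9 in WT controls and 100, 91.7 and 52.8 with DMXAA, and 31.3, 27.8 and 39.7 against 56.2, 46.3 and 84.9 in CRE. DMXAA was higher than control in all 3 pairs of each label, although the WT groups overlapped. Without the block neither change passed (0.74 ± 0.34 and 0.90 ± 0.34, adjusted p = 0.13 and 0.0771), and with it both did (0.78 ± 0.16 and 0.87 ± 0.15, adjusted p = 0.00235 and 0.00162). WT BMDCs held 2.47-fold more Hif1a than WT BMDMs in controls (adjusted p = 0.0112) and 2.41-fold more under DMXAA (adjusted p = 0.0126).

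Egln3 and Bnip3, both known HIF targets, fell in WT BMDMs. Egln3 (ENSMUSG00000035105, chr12:54178981-54203860, minus strand) encodes a prolyl hydroxylase that marks HIF for degradation and is itself a HIF target. It was 1.42 and 2.10 FPKM in WT control BMDMs, 0.0997 and 0.520 with DMXAA, 0.693 and 0.852 in CRE controls and 0.294 and 0.396 with DMXAA. The DMXAA libraries lay below all controls. The fall in WT was -2.56 ± 0.66 (adjusted p = 0.0217, lost without WT control 2) and the change in CRE -1.18 ± 0.64 (adjusted p = 0.29). Only the WT controls reached 1 FPKM, so Egln3 passed the filter in BMDMs through the group where it was high. The WT DMXAA libraries held 3 and 20 counts, so the size of this fall is uncertain. In BMDCs it was 4.05, 3.40 and 2.93 in WT controls, 3.49, 2.15 and 1.74 with DMXAA, 3.38, 2.75 and 2.59 in CRE controls and 2.02, 1.18 and 1.88 with DMXAA, with no call without the block and a fall in both labels with it (-0.56 ± 0.20 and -0.82 ± 0.21, adjusted p = 0.0445 and 0.0107). Under DMXAA WT BMDCs held more Egln3 than WT BMDMs (adjusted p = 0.000404). No fold is given, because the BMDM libraries held 3 and 20 counts and Egln3 passed the filter only through other groups. Bnip3, a mitophagy receptor, went from 11.5 and 17.3 FPKM to 5.50 and 8.28 in WT BMDMs (-1.17 ± 0.27, adjusted p = 0.0153, lost without WT DMXAA 1 or WT control 2) and from 11.2, 9.85 and 7.62 to 6.47, 6.69 and 3.86 in WT BMDCs (-0.78 ± 0.25, adjusted p = 0.0360, lost with 4 of the 6 single libraries left out). In CRE BMDCs it fell by 0.85 (SE 0.25, adjusted p = 0.0288), a call that was lost without CRE DMXAA 1, CRE control 2 or CRE control 3 alone and without both number 2 libraries (adjusted p of 0.0652 to 0.101). With the block both BMDC falls passed (adjusted p = 0.00124 in WT and 0.00103 in CRE).

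Other members were also called between WT cell types. In controls BMDCs held more Pfkfb4 (1.62 ± 0.44, adjusted p = 0.0121), Pdk3 (0.76 ± 0.24, adjusted p = 0.0273) and Hk2 (0.64 ± 0.23, adjusted p = 0.0442), and less Pfkfb3 (-1.59 ± 0.24, adjusted p = 0.000131), Pdk1 (-1.34 ± 0.34, adjusted p = 0.00789) and Tpi1 (-0.62 ± 0.20, adjusted p = 0.0281). The Hk2 and Tpi1 differences failed with 4 of the 5 single libraries left out. Under DMXAA BMDCs held more Hk2 (1.32 ± 0.23), Gpi1 (0.70 ± 0.15) and Slc2a1 (0.42 ± 0.13), and less Eno2 (-1.57 ± 0.47), Hk3 (-1.0 ± 0.18), Slc16a1 (-0.96 ± 0.29) and Pkm (-0.78 ± 0.17), with adjusted p from 0.00052 to 0.0193. Without BMDM WT DMXAA 2 the Slc16a1 difference was -0.32 and did not pass.

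**Figure D3:**
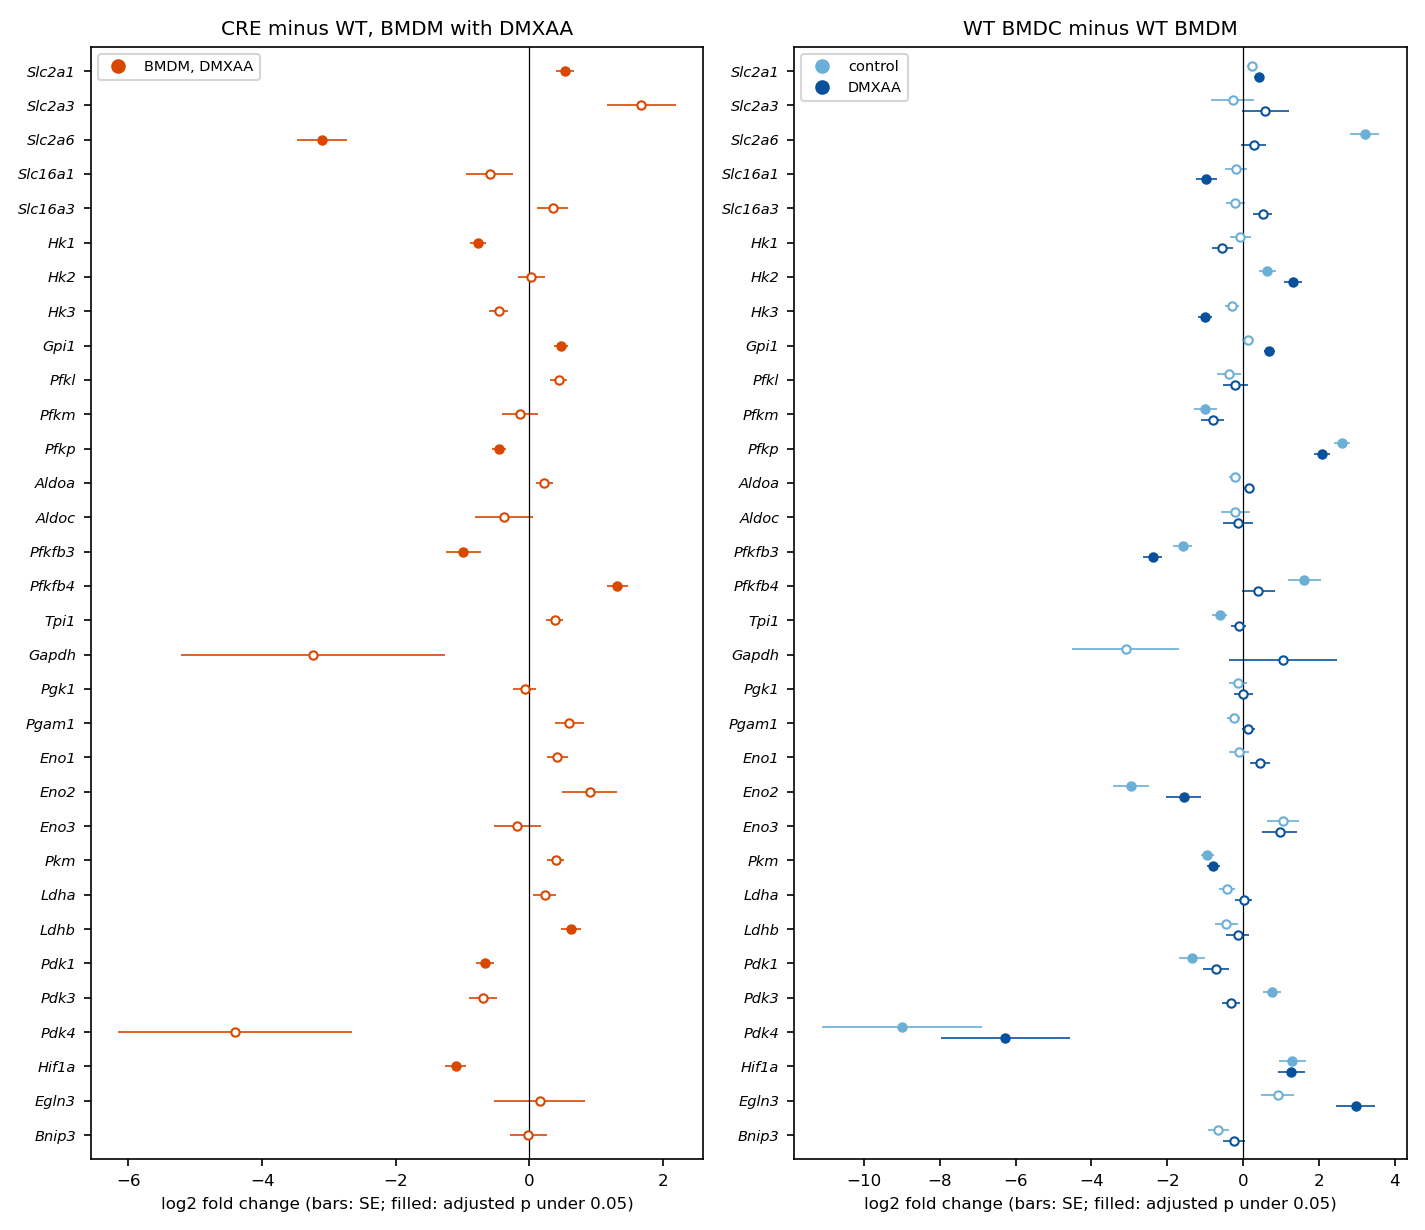
Log2 fold change of each gene (horizontal axis, bars are standard errors) for CRE minus WT in BMDMs with DMXAA (left) and for WT BMDCs minus WT BMDMs (right, light blue control, dark blue DMXAA), with filled points at an adjusted p under 0.05. On the left Slc2a6 lies at -3.11 and Pfkfb4 at 1.32, and on the right Slc2a6 lies at 3.21 in controls and 0.28 under DMXAA.

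Shares within an isozyme family do not depend on library scaling, so they were computed from FPKM in each library and are given as mean ± SD (n = 2 for BMDMs, n = 3 for BMDCs). Slc2a6 made up 17.5 ± 7.88% of the summed FPKM of Slc2a1, Slc2a3 and Slc2a6 in WT control BMDMs and 86.6 ± 1.83% with DMXAA, and 14.9 ± 0.764% against 33.7 ± 0.804% in CRE. In WT BMDCs the share went from 63.5 ± 4.55% to 85.4 ± 0.280%, and in CRE from 59.5 ± 4.27% to 81.8 ± 7.33%. WT BMDMs with DMXAA thus reached the share of WT BMDCs with DMXAA, and CRE BMDMs did not. These are values with no test.

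Pfkp made up 28.7 ± 2.06% of the phosphofructokinase FPKM in WT control BMDMs, 61.9 ± 1.40% with DMXAA, and 32.4 ± 0.366% against 48.2 ± 2.10% in CRE. In WT BMDCs it was 77.1 ± 3.79% and 89.3 ± 2.47%. Hk3 made up 80.0 ± 1.56% of the hexokinase FPKM in WT control BMDMs and 90.6 ± 1.72% with DMXAA, and 72.3 ± 1.65% against 79.3 ± 0.616% in WT BMDCs. The share of Hk1 in WT BMDMs went from 10.5 ± 0.291% to 6.22 ± 0.622% although its own level rose. Pfkfb3 made up 62.3 ± 11% of Pfkfb3 and Pfkfb4 together in WT control BMDMs and 93.2 ± 1.19% with DMXAA, and 15.7 ± 2.27% against 67.1 ± 3.6% in WT BMDCs. In CRE control BMDCs the Pfkfb3 share was 30.8 ± 24.9%, the wide spread coming from number 2, where it was 59.4%.

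**Figure D4:**
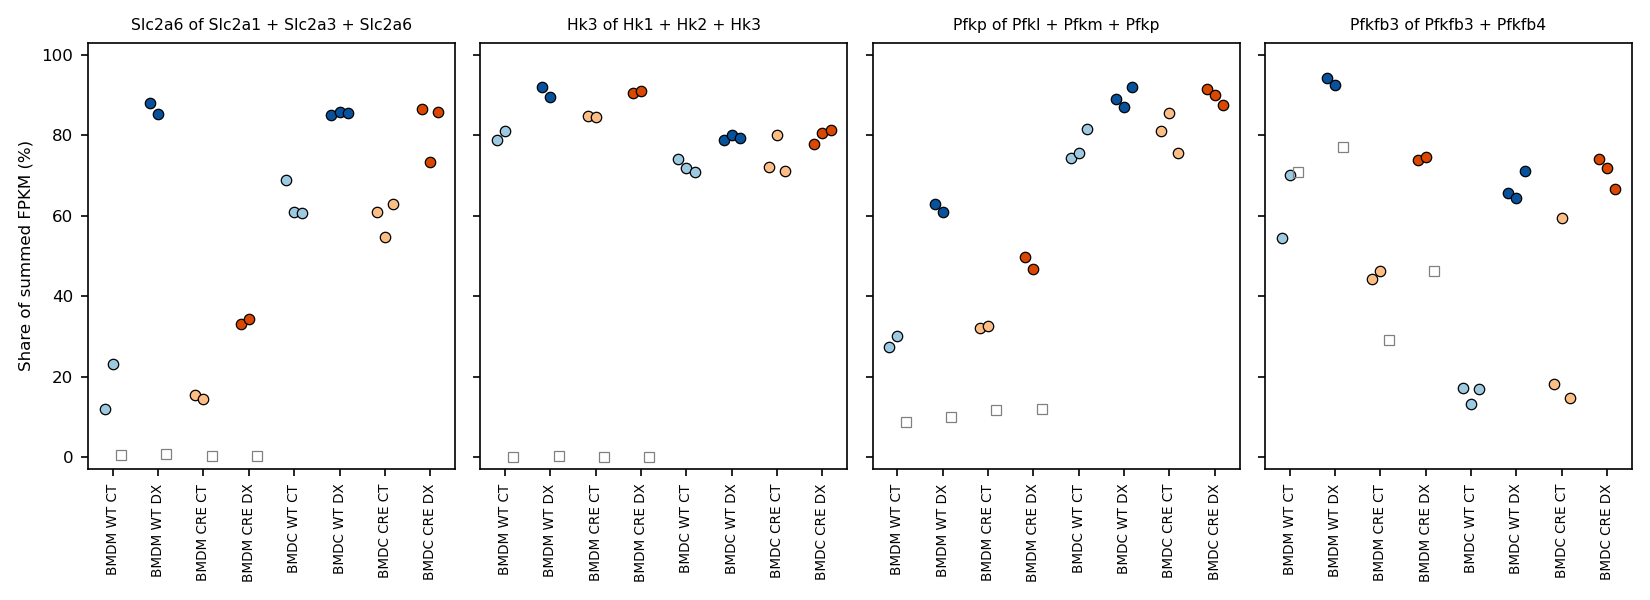
Share of the summed FPKM of an isozyme family (vertical axis, percent) taken by Slc2a6, Hk3, Pfkp and Pfkfb3 in each library, by group (horizontal axis, CT control, DX DMXAA), with grey squares for the BMDM libraries numbered 3. The share of Slc2a6 reached 85.3% and 87.9% in WT BMDMs with DMXAA and 33.1% and 34.3% in CRE.

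Neighbouring pathways of carbohydrate metabolism were taken as lists from known pathway membership. Their counts stand against 39.2% of all genes called in WT BMDMs and 32.2% in WT BMDCs, in either direction. In WT BMDMs 1 of 7 pentose phosphate genes passed as higher and 2 as lower, and of 16 TCA cycle genes 0 passed as higher and 3 as lower, the former near that share and the latter below it. Tkt, the transketolase, fell in WT BMDMs (-0.72 ± 0.11, adjusted p = 0.0032) and WT BMDCs (-0.66 ± 0.16, adjusted p = 0.00835), and Rpe, the ribulose phosphate epimerase, rose in WT BMDMs by 1.09 ± 0.15 (adjusted p = 0.00195). In WT BMDCs 0 of 7 pentose phosphate genes passed as higher and 1 as lower, and 0 of 16 TCA cycle genes as higher and 2 as lower, both below the share of all genes. Idh3a, a subunit of isocitrate dehydrogenase, fell in both, by 0.83 (SE 0.12, adjusted p = 0.00222) in WT BMDMs and 0.87 (SE 0.21, adjusted p = 0.0091) in WT BMDCs. Of 11 genes for pyruvate dehydrogenase and mitochondrial pyruvate uptake, 1 was lower and 0 higher in each, namely Pdha1 (-0.41 ± 0.11 and -0.52 ± 0.16).

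Of 10 glycogen and gluconeogenesis genes, 1 was higher and 3 were lower in WT BMDMs, and 1 and 4 in WT BMDCs, against 39.2% and 32.2% of all genes. Gys1, glycogen synthase, fell by 1.15 (SE 0.19, adjusted p = 0.00425) in WT BMDMs and 1.10 (SE 0.26, adjusted p = 0.00689) in WT BMDCs, and Pgm2, a phosphoglucomutase, rose by 0.64 ± 0.14 and 0.84 ± 0.18. Among the HIF regulators, 1 of 7 was higher and 2 lower in WT BMDMs, and 1 of 6 higher and 1 lower in WT BMDCs, near those shares. Cited2, which competes with HIF for its coactivator, had a mean of 36.3 FPKM in WT control BMDMs and 109 with DMXAA (1.48 ± 0.20, adjusted p = 0.0018) and of 49.3 and 111 in WT BMDCs (1.15 ± 0.29, adjusted p = 0.0105). Egln1, the main HIF prolyl hydroxylase, went from 24.6 to 7.70 FPKM in WT BMDMs (-1.78 ± 0.20, adjusted p = 0.000853) and from 20.2 to 12 in WT BMDCs (-0.77 ± 0.15, adjusted p = 0.00243). Of the other hypoxia-linked genes 1 of 13 was higher and 3 lower in WT BMDMs, and 4 of 11 higher and 2 lower in WT BMDCs, with P4ha1 (collagen prolyl hydroxylase) up by 1.56 ± 0.17 and Hmox1 (heme oxygenase) down by 0.89 (SE 0.28) in WT BMDMs, and Hilpda (a lipid droplet protein) up by 2.02 ± 0.56 and Ddit4 (an mTORC1 inhibitor) down by 1.07 (SE 0.25) in WT BMDCs. Of 6 other isozymes and glycolytic regulators tested, 1 was higher and 1 lower in WT BMDMs, where Pgam2 (muscle phosphoglycerate mutase) rose by 2.11 ± 0.45, and 0 were higher and 2 lower in WT BMDCs, where Tigar (a fructose bisphosphatase) fell by 0.45 (SE 0.14).

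The 4 BMDM libraries numbered 3, with little macrophage or leukocyte RNA, had a different set of glycolytic isozymes. Hk3 was 0 to 0.10 FPKM in them, Slc2a6 0.05 to 0.23, Slc2a3 0 to 0.01 and Slc16a3 0.19 to 0.36. Eno3 stood at 83.4 to 125 FPKM, Pfkm at 38.0 to 43.6, Egln3 at 6.46 to 12.6 and Pgk1 at 577 to 614. Each of these ranges lay outside that of the other 8 BMDM libraries. Hk3 and Slc2a6, the members with the largest rises in WT BMDMs, were thus nearly absent from libraries in which macrophage markers were. These are values with no test.

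**Figure D5:**
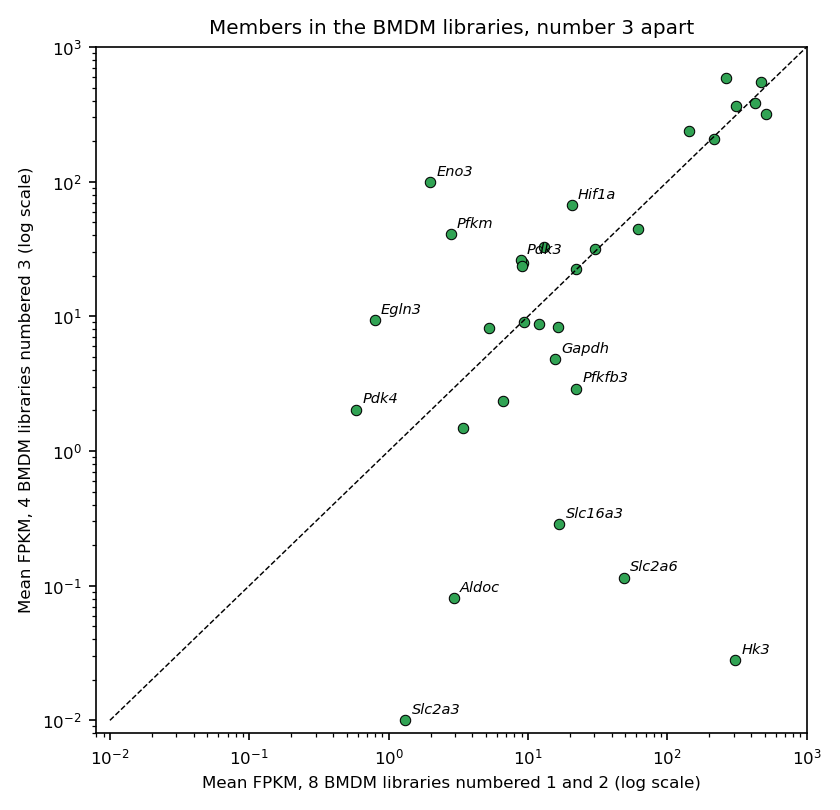
Mean FPKM of each gene in the 4 BMDM libraries numbered 3 (vertical log axis) against the mean of the other 8 BMDM libraries (horizontal log axis), with values under 0.01 drawn at 0.01 and the dashed line marking equal values. Hk3, Slc2a6 and Slc2a3 lie below the line and Eno3 and Pfkm above it.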

How the data were processed

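Poly(A) RNA of 24 libraries was sequenced by the authors, and the gene table they deposited holds raw read counts and FPKM for each library, with gene positions and lengths. Per the submitters' processing notes, reads were called with CASAVA 1.8, cleaned with fastp, aligned to mm10 (GRCm38) with HISAT2 2.0.5 and counted with featureCounts 1.5.0-p3, and FPKM were computed from gene length and counts. How fragments that match several places or overlap an antisense gene were counted was not given in the sources used here. The deposited tables also hold the authors' group means, log2 fold changes and p-values from DESeq2 1.20.0, which were not used. All 48 per-library columns (counts and FPKM) matched a label, 0 did not, and 0 rows lacked a gene name.

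The counts were tested with edgeR 4.0.16 (R 4.3.3), quasi-likelihood F-test with TMM scaling, on genes at 1 FPKM or more in as many libraries as the smallest group of the fit has. One fit held the 12 BMDC libraries, another the 8 BMDM libraries numbered 1 and 2, and the last these 20, each with its groups as terms and no replicate block. The 13 comparisons used a Benjamini-Hochberg adjusted p under 0.05 over all genes tested. FPKM served for levels and shares only. Controls are shared between the response, label and cell type comparisons, so these are not independent. Fold changes are fitted from counts and differ slightly from ratios of FPKM. Total counts of 15657347 to 18912887 set the precision. The test scripts were checked on simulated data with 4-fold and 2-fold changes added. The BMDC, BMDM and cell type fits recovered 78%, 71% and 64% of the 4-fold changes. They recovered 25%, 21% and 14% of the 2-fold changes. A change that did not pass is thus not shown to be absent. Alternatives used median-of-ratios or total-count scaling, no filter or a filter at FPKM 5, DESeq2 1.42.0, also with the study's thresholds (log2 change of at least 1 and unadjusted p of at most 0.05), limma 3.58.1 on log2(FPKM + 1) or log2(FPKM + 0.1), replicate blocks, the compared groups alone, all BMDM libraries, and each library left out. Total-count scaling, leaving out the BMDC CRE libraries numbered 2 and leaving out the BMDM WT libraries numbered 2 were chosen after seeing the data. The members and all lists were chosen with earlier results of these data known.

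Pairing was checked by correlating the deviations from the group mean of same-numbered libraries. Control and DMXAA libraries of BMDCs correlated at 0.40 to 0.64 in WT and 0.52 to 0.68 in CRE, and at -0.50 to 0.047 across labels, so numbers pair BMDC libraries within a label, as read from the data, the labels saying nothing of it. In BMDMs the 2 numbers kept gave 0.66 in WT and 0.031 in CRE. All 32 members were described, with values in each library for the 3 largest called rises and falls in each WT response, members called in an interaction or between labels, and Hif1a, Slc2a1, Pfkfb3, Hk2 and Ldha. From each neighbouring list the called genes with the largest rise and fall at a mean FPKM of at least 5 were named. Figures were drawn with matplotlib 3.10.9.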

Additional observations from a re-analysis of the deposited data

Results flagged for a closer look

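The response of Slc2a6 to DMXAA differed between WT and CRE BMDMs by an interaction test in edgeR, with a log2 difference of -2.59 ± 0.50 (CRE minus WT, adjusted p = 0.0458, n = 2 per group). That of Pfkl differed in the same test by 0.96 ± 0.18 (adjusted p = 0.0422). Both calls were lost without WT DMXAA 1 or without any of the CRE libraries. The response of Slc2a6 also differed between WT BMDCs and WT BMDMs, by -2.93 ± 0.48 (BMDC minus BMDM, adjusted p = 0.00379), where control BMDCs started 9.26-fold higher. In the same BMDM libraries the fibroblast markers summed to 55.3 and 67.6 FPKM in WT number 2 against 7.25 and 5.30 in WT number 1. Their part in these differences was not tested beyond leaving WT number 2 out, which gave -3.39 and 1.08 for the BMDM differences of Slc2a6 and Pfkl and -3.79 for the cell type difference of Slc2a6. Those fits leave 1 library in each WT group of BMDMs, so only the sizes are given.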

How the results depend on the processing

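Counts below are members called (edgeR, adjusted p under 0.05 unless named) and the cause of each shift was not tested. Leaving out each library in turn gave 7 to 9 for the WT response of BMDCs (11 in the fit reported), 6 to 12 for the CRE response (10), 16 to 23 for the WT response of BMDMs (20), 1 to 2 for the CRE response (8), 1 to 13 for CRE against WT BMDMs under DMXAA (10), 0 to 3 in controls (0), 0 to 5 for the difference of BMDM responses (2), 8 to 10 and 8 to 12 between WT cell types without and with DMXAA (13 and 12), 1 to 2 for the difference of their responses (1), and 0 in the 3 BMDC label comparisons. DESeq2 gave 17 for the CRE response of BMDCs, 2 for control BMDMs, 7 for the difference of BMDM responses and 3 for that between cell types. With the study's thresholds it gave 1 in each BMDC label comparison, 4 for the CRE response of BMDMs, 6 and 1 for their label differences with and without DMXAA, and 5 for the difference between cell types. Without a filter, 1 passed in BMDCs between labels under DMXAA and 1 for the difference of their responses, 2 in control BMDMs, 6 for the difference of BMDM responses and 4 for that between cell types. On log2(FPKM + 0.1), limma gave 7 for the WT response of BMDCs and 0 for the difference of BMDM responses, and on log2(FPKM + 1) it gave 1 for the latter. Scaling by total counts gave 22 and 17 for the WT and CRE responses of BMDCs. Fitting the compared groups alone gave 6 for the CRE response of BMDCs, 11 and 27 for the WT and CRE responses of BMDMs and 6 for their label difference under DMXAA. A replicate block within genotype gave 22 and 17 in BMDCs and 13 for the difference of BMDM responses. In BMDMs the deviations of same-numbered libraries correlated at 0.66 in WT and 0.031 in CRE, so pairing is not shown in CRE. The plain replicate block moved no count by over 1.5 times. With number 3 included, every BMDM response and label count was 0 and the cell type counts were 5, 5 and 0, and adding a replicate block gave 3 for the WT response, 0 for the other BMDM counts and 7, 6 and 0 between cell types. In those fits the direction turned for Eno3 in the WT response of BMDMs (0.057) and, between WT cell types, for Pdk3 in controls (-0.27), Egln3 with DMXAA (-0.87) and, with the block, Hk3 with DMXAA (0.63). Leaving out the BMDM WT libraries numbered 2 gave 24 and 11 for the label differences with and without DMXAA, 23 for the difference of responses and 2 for that between cell types, in a fit whose spread comes from the CRE libraries alone. Leaving out the BMDC CRE libraries numbered 2 moved no count by over 1.5 times. Of the 429 values of called members with a library left out, 293 kept their call, 136 lost it and 0 turned, and of 1109 under the other alternatives 887 kept it, 218 lost it and 4 turned.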
